A study of Mus musculus with 6 samples.

Results

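The Hox genes are the 39 homeobox genes of the 4 mammalian Hox clusters. They were taken as every probe on the array, other than controls, whose gene name was Hox, a cluster letter from a to d and a number. The choice gave 39 of 36161 gene names (43 of 55681 probes, on 61 spots) and covered 11 genes of cluster A, 10 of cluster B, 9 of cluster C and 9 of cluster D. RNA came from 3 skin tumors, labelled cSCC (cutaneous squamous cell carcinoma), of female FVB/N mice painted with DMBA, a hydrocarbon mutagen, and with TPA (also called PMA), a phorbol ester tumor promoter, and from 3 biopsies of healthy skin of female FVB/N mice painted with acetone. TPA was painted over 6 weeks, DMBA was given once more in week 8, and TPA followed over 14 weeks. No skin painted with DMBA and TPA but without a tumor was measured, so effects of tumor and treatment cannot be told apart. The labels name neither the body site of a biopsy nor the mouse it came from.

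Hox genes encode transcription factors that bind DNA through a homeodomain and give cells their position along the body axis in the embryo. Within a cluster the genes lie in the order in which they act along that axis, from the head end (low paralog numbers) to the tail end (high paralog numbers), and genes with the same number in different clusters are copies of a common ancestor. Adult skin keeps a pattern of Hox expression that differs between body sites, known best from human dermal fibroblasts. Pbx and Meis proteins are their DNA-binding partners, Polycomb proteins keep silent Hox genes off, MLL complexes keep active ones on, and retinoic acid switches on genes of the head end.

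Hox genes resemble each other most in the homeobox, so the letters of the probes bear on which gene a spot reports. Of the 43 probes, 2 carry the stretch of the homeobox that encodes the invariant core of the DNA-recognition helix (15 letters). This stretch was found by reading each probe as protein in its 3 frames and is present in 7 of all 55681 probes. The 2 are the probe of Hoxc11 and a probe of Hoxb3, a gene past the test below. In 1 probe lie the 12 letters that encode YPWM, the core of the hexapeptide, which contacts Pbx proteins (present in 2 probes). A probe of each kind is shown: that of Hoxa6, with the letters of the hexapeptide core, was past the test below, and that of Hoxc11, with the homeobox stretch, was not detected on any array. Capitals mark these stretches.
Hoxa6: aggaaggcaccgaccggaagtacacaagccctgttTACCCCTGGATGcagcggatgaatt
Hoxc11: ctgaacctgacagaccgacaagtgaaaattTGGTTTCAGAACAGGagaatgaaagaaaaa
In the array's annotation (mm9) these probes lie at chr6:52158194-52158253 on the minus strand (Hoxa6) and chr15:102787022-102787081 on the plus strand (Hoxc11). Over the 899 pairs of probes of different Hox genes, the longest identical run was 11 bases and the median 6, so no pair shared a run of 15 bases or more. Probes were compared with each other and not with the transcripts of other Hox genes, so whether a probe also binds another Hox transcript was not tested.

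Arrays were compared on the log2 signal minus each array's own 75th percentile, so that 0 means a signal at that percentile and each unit is a doubling. A probe counts as well above background where the scanner software's flag says so. Over all probes, 47.1%, 62.4% and 64.5% were well above background on tumor arrays 1, 2 and 3, and 61.1%, 62.5% and 56.3% on healthy skin arrays 1, 2 and 3. Median background was 85 intensity units on the tumor 1 array, while the other 5 arrays had 23 to 26. The healthy skin 3 array was the dimmest (75th percentile signal 242, against 525 to 897). Both arrays recur below.

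The Hox genes detected in both groups were mostly those of the middle of the clusters. On tumor arrays 1, 2 and 3, 19, 26 and 28 of the 39 genes were well above background, and on healthy skin arrays 1, 2 and 3, 28, 27 and 24 were. The groups overlapped (exact permutation test, two-sided, p = 0.7, where 3 arrays against 3 cannot give less than 0.1). All 15 genes of paralog groups 4 to 8 (the central genes) passed the filter for testing, detection on 3 or more arrays. Of the 8 genes of groups 1 to 3 (anterior) 6 passed that filter, and of the 16 genes of groups 9 to 13 (posterior) 6 did. All 3 tumor arrays detected 18 genes, and all 3 healthy skin arrays detected 24. The tumor 1 array by itself missed Hoxa2, Hoxa4, Hoxa9, Hoxb8, Hoxb9, Hoxc8, Hoxd4 and Hoxd10, which both other tumor arrays detected.

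**Figure D1:**
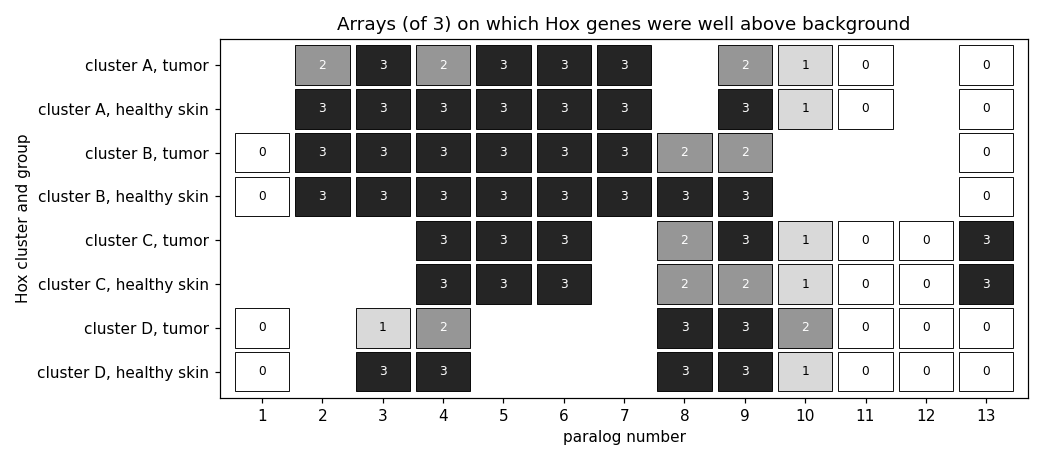
Number of arrays, of 3 per group, on which the Hox genes shown were well above background, by cluster and group (rows, tumor above healthy skin) and paralog number (columns). Dark squares, 3 arrays, fill paralog groups 2 to 7 in most rows, and the squares of groups 11 and 12 hold 0 in both groups.

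On no array were 10 genes well above background: Hoxb1 and Hoxd1, which act in the hindbrain, and Hoxa11, Hoxa13, Hoxb13, Hoxc11, Hoxc12, Hoxd11, Hoxd12 and Hoxd13, genes of limb, genital and tail patterning. The probes for Hoxa11 and Hoxb1 were each printed on 10 spots. Hoxa11 had median signals of 12.4, 3.71 and 3.38 intensity units on tumor arrays 1, 2 and 3 and of 3.79, 4.05 and 2.73 units on healthy skin arrays 1, 2 and 3. Single spots stood far above the median of their probe. The brightest Hoxa11 spot on healthy skin 1 had 145 units, and the brightest Hoxb1 spot on tumor 1 had 81.8 units. Both spots were left out as outliers. Hoxa10 and Hoxc10, both of paralog group 10 and genes of the lumbar region and hindlimb, were detected on the same 2 arrays, tumor 3 and healthy skin 1. Relative log2 signals of Hoxc10 were -3.46, -7.78 and -3.98 in tumors and -2.87, -5.75 and -5.54 in healthy skin. Those of Hoxa10 were -5.60, -7.75 and -5.22 in tumors and -1.82, -5.00 and -6.41 in healthy skin. The tumor 1 value of Hoxc10 was not well above that array's background.

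The comparison asked whether Hox genes were expressed differently in tumors and healthy skin. Of the 27 Hox genes tested, 5 fell in tumors, Hoxd4, Hoxa2, Hoxc13, Hoxa6 and Hoxb3, and 0 rose (limma, adjusted p under 0.05). The 5 came from all 4 clusters. At an unadjusted limma p under 0.05 were 10 of the 27, against 10079 of all 24756 features. The 5 genes are 18.5% of those tested, close to the background, since 15.6% of all 24756 features were called lower and 10.3% higher in tumors (25.9% in either direction). The other 22 did not pass. Tumor arrays all lay below all healthy skin arrays for 8 of the 27 genes (29.6%, against 29% of all features), and all above for 0 (against 20.7% of all features). Since separate mice are not stated in the labels, the p-values cover the spread of these samples, which may be technical.

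The median log2 fold change was -0.99 over the 27 Hox genes and -0.16 over all features, a distance of -0.82. Below 0 were 23 of the 27, against 56.2% of all features, but with the spike-in controls as reference 15 of 27 were, against 24.2% of all features, and the medians were -0.09 for Hox genes and 0.73 for all features. Without tumor 1 the distance shrank to -0.31. Members were counted after the detection filter, which a gene can pass through its higher group alone.

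**Figure D2:**
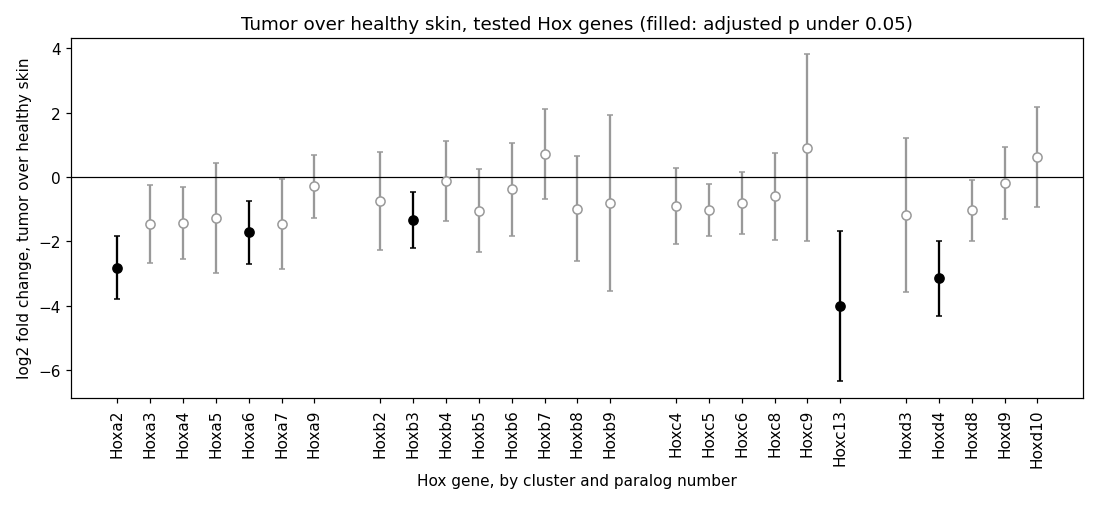
Log2 fold change of tumor over healthy skin for tested Hox genes, by cluster and paralog number; points are fold changes from limma, bars the 95% confidence intervals, and filled points have an adjusted p under 0.05. The filled points lie between -1.34 (Hoxb3) and -4.01 (Hoxc13), and Hoxb7, Hoxc9 and Hoxd10 lie above 0 with this scaling (with spike-in scaling 15 of the 27 tested genes were below 0).

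Hoxd4, a gene of hindbrain and neck patterning, was the most stable of the 5. Its relative log2 signals were -3.60, -3.77 and -2.61 in tumors 1, 2 and 3 and -0.53, -0.77 and 0.74 in healthy skin 1, 2 and 3. The highest tumor lay well below the lowest healthy skin sample, and tumor 1 was not well above background. The tumors had 8.83-fold less Hoxd4 signal (log2 fold change -3.14, SE 0.50, adjusted p = 0.00512), and it was called under all 18 alternatives run for it, those without tumor 1 (-3.01, adjusted p = 0.0195) and without healthy skin 3 (-2.68, adjusted p = 0.0134) among them.

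Hoxa2, which gives the skeleton and connective tissue of the second pharyngeal arch their identity, followed. It had relative log2 signals of -4.36, -3.90 and -5.05 in tumors and -2.04, -1.82 and -1.004 in healthy skin. Again the groups did not overlap, and tumor 1 was not well above background. The tumor mean was lower by 7.05-fold (log2 fold change -2.82, SE 0.42, adjusted p = 0.00406). The call was lost in 1 of 18 alternatives, spike-in scaling (-1.93, adjusted p = 0.0732).

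Promoters of Hoxd4 and Hoxa2 are shown because these genes kept their calls in the most alternatives. Of the 39 Hox genes, 22 had a promoter among the RefSeq sequences used (assembly GRCm38.p6, 250 bases before to 50 after the start), with 24 promoters in all, and Hoxb3 and Hoxc13 had none. Capitals mark CCAAT (the CCAAT box), TATAAA (the TATA box) and TGATNNAT (a joint site of Pbx and Hox proteins); these and TAATTA, a homeodomain core, were searched on both strands.
Hoxa2: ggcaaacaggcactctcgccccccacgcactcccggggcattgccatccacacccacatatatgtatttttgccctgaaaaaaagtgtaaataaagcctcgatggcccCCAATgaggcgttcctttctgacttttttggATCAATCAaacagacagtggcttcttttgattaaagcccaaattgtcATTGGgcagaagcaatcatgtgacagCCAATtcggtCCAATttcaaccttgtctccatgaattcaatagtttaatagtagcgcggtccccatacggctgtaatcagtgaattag
Hoxd4: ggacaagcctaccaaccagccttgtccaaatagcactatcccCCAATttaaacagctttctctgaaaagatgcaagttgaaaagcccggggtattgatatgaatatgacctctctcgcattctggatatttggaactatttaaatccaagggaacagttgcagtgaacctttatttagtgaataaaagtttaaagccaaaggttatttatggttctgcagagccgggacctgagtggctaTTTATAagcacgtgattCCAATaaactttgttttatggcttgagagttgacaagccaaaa
The Hoxa2 window is chr6:52164782-52165081 on the minus strand and holds 4 CCAAT matches and 1 TGATNNAT match. The Hoxd4 window is chr2:74721728-74722027 on the plus strand and holds 2 CCAAT matches and 1 TATAAA match. CCAAT was found in 15 of the 24 Hox promoters (62.5%) and in 37.4% of all 32851 promoters, TATAAA in 4 (16.7%, against 13.6%) and TGATNNAT in 4 (16.7%, against 8.85%). TAATTA was found in 8.33% of Hox promoters and in 5.29% of all promoters. Hox promoters held a median of 14.5 CG dinucleotides, against 7 over all promoters, and the Hoxa2 and Hoxd4 windows held 9 and 4. A match describes the letters and shows no binding.

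Hoxc13, the last gene of cluster C, is a regulator of hair keratin genes in the growing hair shaft. Its relative log2 signals were -2.72, -5.47 and -1.45 in tumors and 1.57, -0.34 and 1.17 in healthy skin. Tumor 2 was the lowest by far, healthy skin 2 was the lowest of its group, and the groups did not overlap. Hoxc13 signal was lower in tumors by 16.1-fold (log2 fold change -4.01, SE 0.9985, adjusted p = 0.0254). The call was lost in 6 of 19 alternatives, among them those without tumor 1 (-4.26, adjusted p = 0.0561), healthy skin 1 (-3.63, adjusted p = 0.0657) or healthy skin 3 (-3.83, adjusted p = 0.083). The others were tumor 1 and healthy skin 3 left out together (-4.07, adjusted p = 0.128), the slide row as a block (-4.38, adjusted p = 0.085) and no detection filter (adjusted p = 0.0538).

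Of 14 genes of the hair shaft and its matrix, 2 were lower in tumors, Lef1, a Wnt-responsive factor (6.12-fold, adjusted p = 0.046), and Msx2, a homeobox gene (3.09-fold, adjusted p = 0.0422), and 0 were higher, a share near that of all features called lower (15.6%). The summed signal of the 14, in units of each array's 75th percentile, was 61.2, 55.4 and 65.6 in tumors and 267, 19.9 and 17.1 in healthy skin, with healthy skin 1 far above the other 5 arrays. Of 6 markers of the outer sheath and bulge 4 fell (against 15.6% of all features), led by Lhx2 (43.2-fold), a stem cell factor, and Nfatc1 (9.87-fold) and Tbx1 (9.32-fold), both of quiescent bulge cells. Each marker of both lists was well above background on at least 2 arrays of each group. In bulk tissue fewer cells of a type and less RNA per cell cannot be told apart, and the part of hair follicle cells in the Hoxc13 result was not tested.

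Hoxa6, a gene of the trunk, had relative log2 signals of -3.33, -3.73 and -4.36 in tumors and -1.50, -2.03 and -2.74 in healthy skin. The groups did not overlap, although tumor 1 came close to healthy skin 3. Tumors had 3.29-fold less Hoxa6 signal (log2 fold change -1.72, SE 0.42, adjusted p = 0.0242). The call was lost in 9 of 19 alternatives. Leaving out tumor 2, tumor 3, healthy skin 1 or healthy skin 2 gave log2 fold changes between -1.76 and -1.42 (adjusted p = 0.0626 to 0.0692). Spike-in scaling gave -0.83 (adjusted p = 0.501), the slide row as a block -1.07 (adjusted p = 0.137), quantile normalization -1.39 (adjusted p = 0.0549) and the authors' deposited table of log2 values -0.94 (adjusted p = 0.0581). Without a detection filter the adjusted p was 0.0573.

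Hoxb3, a gene of the hindbrain and pharyngeal organs, had relative log2 signals of -2.50, -1.39 and -1.85 in tumors and -0.17, -0.70 and -0.84 in healthy skin. Tumor 2 came nearest to the healthy skin samples. Tumors had 2.53-fold less Hoxb3 signal (log2 fold change -1.34, SE 0.37, adjusted p = 0.0365), a call that held in 6 of 19 alternatives and, of the 6 that leave out an array, only without tumor 2 (adjusted p = 0.0407); the others gave adjusted p between 0.0514 and 0.108. A different Hoxb3 probe read -5.05, -0.94 and -2.11 in tumors and -1.32, -1.37 and -1.13 in healthy skin, where tumor 2 lay above all healthy skin samples and tumor 1 was not well above background. Its log2 fold change was of like size and did not pass (-1.42, SE 0.93, adjusted p = 0.281).

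**Figure D3:**
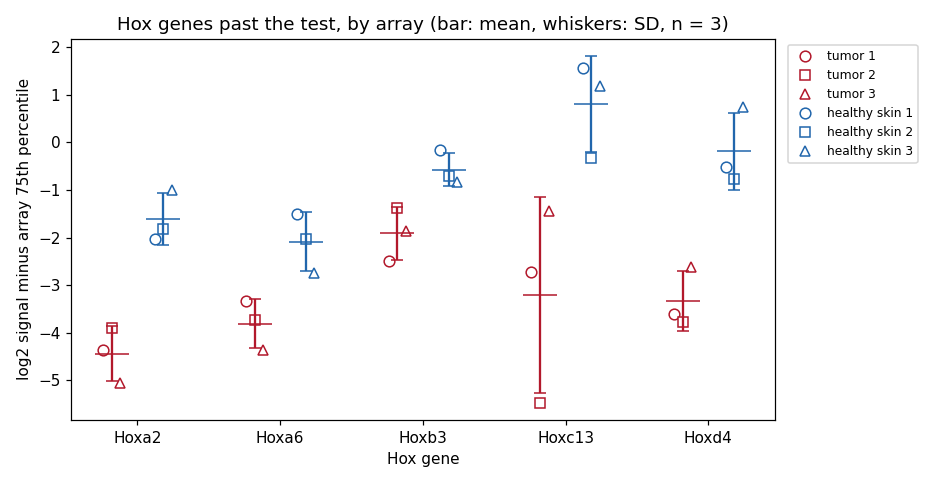
Relative log2 signal (log2 signal minus the array's 75th percentile) of the 5 Hox genes past the test on each array; open symbols are arrays, wide bars the group means and whiskers the SD (n = 3), with tumors left of healthy skin. The groups are apart for all 5 genes, and the Hoxc13 tumors spread from -5.47 to -1.45.

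**Figure D4:**
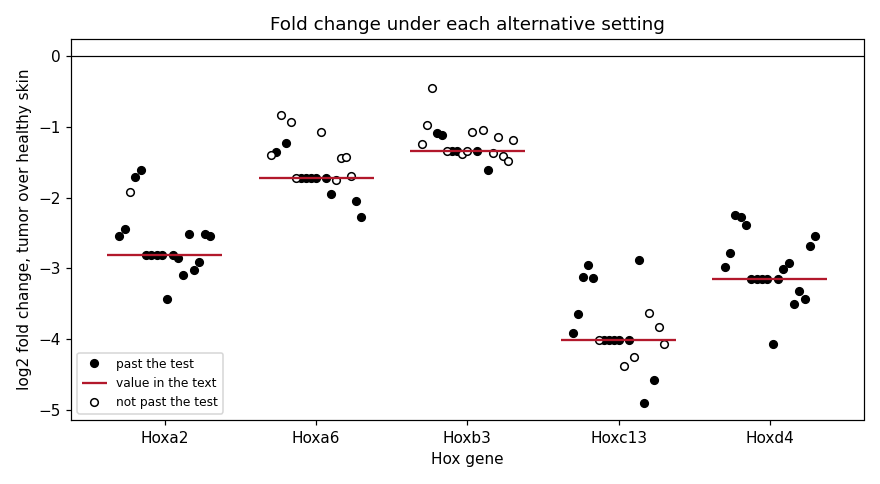
Log2 fold change of the same 5 genes under each alternative setting (points; filled where adjusted p is under 0.05) beside the value in the text (red line). Every point lies below 0, all points are filled for Hoxd4, and most are open for Hoxb3, which was called in 6 of 19.

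Cluster A had the lowest median log2 fold change (-1.44 over 8 genes), ahead of cluster D (-1.04 over 5), cluster C (-0.86 over 6) and cluster B (-0.78 over 8). By position, the anterior genes had a median of -1.26 (6 genes), the central genes -1.03 (15) and the posterior genes -0.24 (6). Spike-in scaling turned the medians of clusters B and C and of the posterior genes positive (0.11, 0.04 and 0.65), and leaving out tumor 1 gave 0.10 for cluster B. In paralog group 3 all 3 genes, Hoxa3, Hoxb3 and Hoxd3, stayed below 0 under every alternative run. Differences between clusters or positions were not tested.

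In cluster A, Hoxa3 (thymus and parathyroid development) and Hoxa4 (neck vertebrae) also had groups that did not overlap without passing the test. Hoxa3 had relative log2 signals of -0.48, 0.18 and -1.73 in tumors and 0.45, 0.53 and 1.37 in healthy skin (log2 fold change -1.46, SE 0.52, adjusted p = 0.0782). For Hoxa4 they were -3.74, -3.22 and -4.55 in tumors and -2.71, -2.91 and -1.62 in healthy skin (-1.42, SE 0.48, adjusted p = 0.0641), with tumor 1 not well above background. Hoxa5 (lung and rib patterning) and Hoxa7 (trunk) had 1 low array in each group. Hoxa5 read -1.56, -1.34 and -3.46 in tumors and -0.20, -0.14 and -2.18 in healthy skin (-1.28, SE 0.74, adjusted p = 0.229). Hoxa7 read 2.66, 2.40 and 0.88 in tumors and 3.94, 3.91 and 2.46 in healthy skin (-1.45, SE 0.60, adjusted p = 0.11). In both genes the low arrays were tumor 3 and healthy skin 3, and the groups overlapped. Without healthy skin 3 the log2 fold changes were -1.95 for Hoxa5 (adjusted p = 0.0925) and -1.94 for Hoxa7 (adjusted p = 0.0623).

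The 2 probes of Hoxa9, a gene of blood stem cells and of the trunk, gave unlike values. The probe used for the gene read -3.78, -3.35 and -3.89 in tumors and -2.51, -3.89 and -3.73 in healthy skin (log2 fold change -0.30, adjusted p = 0.625), with overlapping groups. The other read -4.20, -4.31 and -4.72 in tumors and -2.09, -3.55 and -3.91 in healthy skin (-1.23, adjusted p = 0.102), without overlap.

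In cluster C, Hoxc5 had the fold change of largest size after Hoxc13. Its relative log2 signals were -2.10, -2.08 and -2.81 in tumors and -1.54, -1.49 and -0.85 in healthy skin, without overlap (log2 fold change -1.03, SE 0.34, adjusted p = 0.0635). Hoxc6, a thoracic gene, had 1.76-fold lower signal in tumors with overlapping groups (adjusted p = 0.177), and Hoxc4 1.86-fold (adjusted p = 0.219). Hoxc9, which specifies thoracic motor neurons, read -2.01, 0.38 and -0.42 in tumors and -0.22, 0.02 and -4.60 in healthy skin. Healthy skin 3, where the probe was not well above background, lay far below the other healthy skin samples, and tumor 1 was the lowest tumor, with a deviation of -1.99 from the mean of the other tumors. The log2 fold change of Hoxc9 was 0.91 (SE 1.24, adjusted p = 0.609) with that array and -0.59 (adjusted p = 0.572) without it. With the slide row as a block, which sets healthy skin 3 alone against the 3 tumors, Hoxc9 was called higher in tumors, by at least 12.1-fold (adjusted p = 0.0246), the one Hox gene with a call in that direction under an alternative run here. Under the same block Hoxc5 (-1.48, adjusted p = 0.0362) and, in cluster A, Hoxa4 (-2.21, adjusted p = 0.0294) were called lower. Hoxc8, its neighbour and a gene of the thoracic spine, had a log2 fold change of -0.60 (adjusted p = 0.462), which passed the test without healthy skin 3 (-1.27, adjusted p = 0.0374).

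In cluster D, Hoxd3, a gene of the upper neck vertebrae, was decided by tumor 1. It read -2.39, -6.32 and -6.33 in tumors and -3.96, -4.31 and -3.21 in healthy skin. Tumor 1 lay above all healthy skin samples, and tumors 2 and 3, not well above background, lay below them. The log2 fold change was -1.19 (SE 1.02, adjusted p = 0.411), and without tumor 1 Hoxd3 was at least 4.05-fold lower in tumors (adjusted p = 0.0109), a bound because neither remaining tumor was well above background. Hoxd8 had -1.83, -1.92 and -1.17 in tumors and -0.06, -0.41 and -1.32 in healthy skin (log2 fold change -1.04, adjusted p = 0.0979), and passed without healthy skin 3 (-1.40, adjusted p = 0.0337). Hoxd9 and Hoxd10, of limb and lower trunk, had log2 fold changes of -0.19 and 0.62 (adjusted p = 0.786 and 0.512).

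Cluster B was split between the tumors, and of its genes Hoxb3 alone was called between the groups. Hoxb3 showed the split too, with tumor 1 the lowest tumor (-2.50) and tumor 2 the highest (-1.39). Hoxb5, the second gene of the cluster by size of change, read -3.25, -0.94 and -2.16 in tumors and -0.86, -1.21 and -1.12 in healthy skin (log2 fold change -1.05, SE 0.55, adjusted p = 0.193). Hoxb7 read 0.68, 2.84 and 1.46 in tumors and 1.40, 1.24 and 0.17 in healthy skin (0.72, SE 0.60, adjusted p = 0.393). Hoxb9 read -5.76, -0.83 and -2.17 in tumors and -1.04, -2.57 and -2.69 in healthy skin. In all 3 genes tumor 2 was the highest tumor and tumor 1 the lowest, and the groups overlapped. Without tumor 1 the log2 fold change of Hoxb5 was -0.48 (adjusted p = 0.451) and that of Hoxb7 1.21 (adjusted p = 0.182). Without tumor 2 Hoxb5 passed the test (-1.64, adjusted p = 0.0467), and Hoxb7 had 0.13 (adjusted p = 0.877). The log2 fold change of Hoxb9 was -0.82 (adjusted p = 0.628), and 0.60 without tumor 1. Hoxb2, Hoxb4, Hoxb6 and Hoxb8, with log2 fold changes between -0.99 and -0.12, did not pass either (adjusted p = 0.325 to 0.885).

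Set against the other 2 arrays of its group, the tumors deviated in different clusters. On tumor 1 all 8 tested cluster B genes lay below the mean of the other 2 tumors, by a median of -1.66 log2 units (0.13 over all features). The range ran from -0.88 for Hoxb3 to -4.26 for Hoxb9. Neither Hoxb9 nor Hoxb8, the next lowest (-2.61), was well above background there. On tumor 2 all 8 lay above the mean of the other tumors, by a median of 1.75 (-0.02 over all features). This was not limited to cluster B: on tumor 2, 22 of the 27 Hox genes lay above, among them 8 of 8 of cluster A (median 0.87) and 5 of 6 of cluster C (median 0.58), but 1 of 5 of cluster D (median -0.50). On tumor 3 all 8 tested cluster A genes lay below the mean of the other tumors, by a median of -0.996 (-0.13 over all features), with Hoxa5 lowest at -2.01. On tumor 1 cluster A was not low: 6 of its 8 genes lay above, with a median of 0.22. The counts of cluster B on tumors 1 and 2 and of cluster A on tumor 3 were the same under quantile, median and spike-in scaling, under normexp background correction and in the authors' deposited table of log2 values. Deviations of the 3 arrays of a group are not independent, and these patterns were picked after the values were seen and carry no test.

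Up to paralog group 9, the deviations of healthy skin 3 ran along the paralog numbers. Against the mean of the other 2 healthy skin samples, 9 of 10 genes of paralog groups 1 to 4 were higher, by a median of 0.92, and 13 of 15 genes of groups 5 to 9 were lower, by a median of -1.09 (0.28 over all features). Among the higher ones were Hoxd4 (1.39) and Hoxa4 (1.19). The lower ones ran from -4.50 for Hoxc9, lower than all but 0.137% of features, through -2.02 for Hoxc8 and -2.002 for Hoxa5 to -0.08 for Hoxb5 and -0.02 for Hoxc6, with the other 8 between -1.47 (Hoxa7) and -0.53 (Hoxa9). Hoxa4 and Hoxa5, next to each other in cluster A, lay on opposite sides. The exceptions were Hoxb3 (-0.41) among the low numbers and Hoxc5 (0.67) and Hoxb8 (0.30) among the middle ones. Beyond group 9 the tested genes were Hoxd10 (-0.31) and Hoxc13 (0.56). Over the anterior, central and posterior genes the medians were 0.90, -0.08 and -0.71. The boundary between groups 4 and 5 was placed after the values were seen, so the pattern is a description without a test.

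With spike-in scaling all 25 tested genes of groups 1 to 9 lay below the other healthy skin samples on healthy skin 3, as all features did in the median (-1.52). Relative to that median of all features, groups 1 to 4 stayed between 0.42 and 0.78 above and groups 5 to 9 between -1.37 and -0.63 log2 units from it under the 6 versions of the values. With normexp correction 5 of the 15 middle genes lay above 0. This array was the dimmest of the 6, and its part in the pattern was not tested. Hoxa2 and Hoxd4 were among the genes that lay higher on healthy skin 3, and both stayed called without it.

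**Figure D5:**
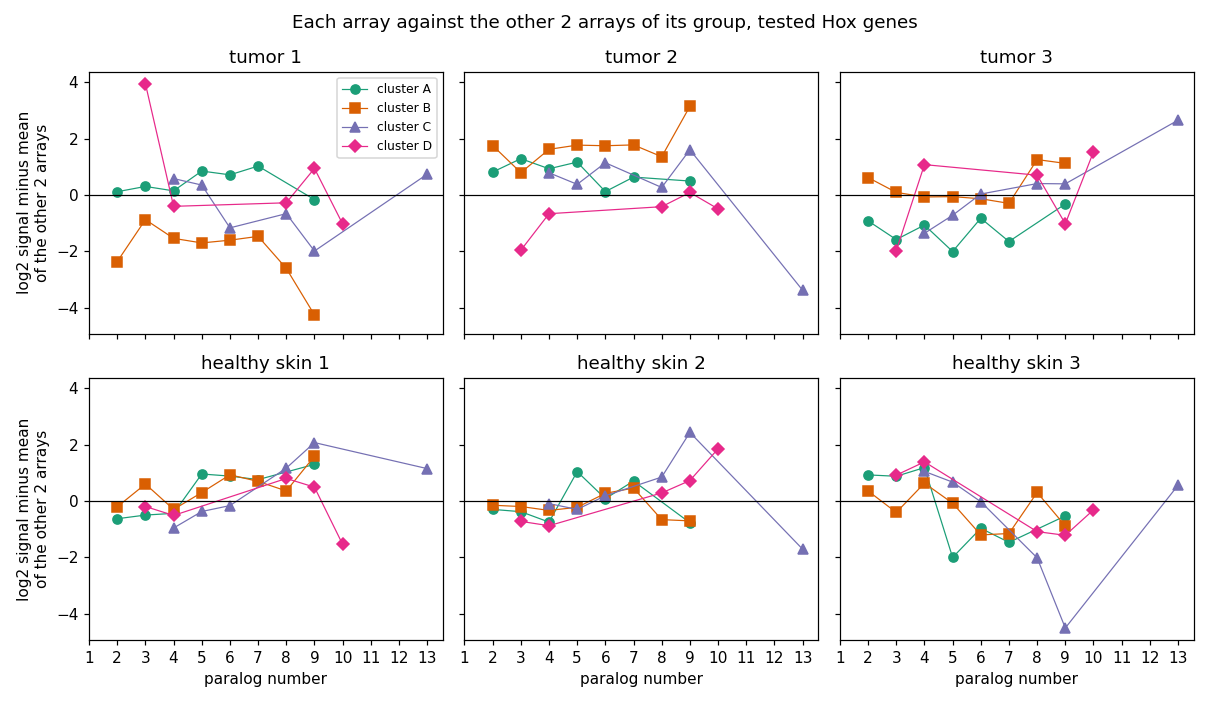
Each array's log2 signal minus the mean of the other 2 arrays of its group for tested Hox genes, against paralog number, with clusters as colours (tumors in the upper row, healthy skin in the lower). Cluster B lies below 0 at all 8 genes on tumor 1 and above 0 at all 8 on tumor 2. Cluster A lies below 0 on tumor 3. On healthy skin 3 most genes fall from positive values at low paralog numbers to negative ones at 5 to 9. Hoxc13 lies above 0 there.

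Among Hox partners, regulators, flanking genes and noncoding RNAs 13 genes were called, where 25.9% of all features were. Tested were 8 cofactors, 26 Polycomb genes, 16 histone enzymes and cofactors, 9 upstream regulators, 10 flanking genes and 2 noncoding RNAs. Spike-in scaling lowered the count to 5 and median scaling raised it to 21. Calls over all features, 6420 in the main setting, were 2686 and 6975 under these scalings. Of 8 tested cofactors of the Pbx, Meis and Pknox families and their binding partner Pbxip1, 0 passed the test in either direction by limma, and the median log2 fold change was -0.22 (-0.16 over all features, of which 25.9% were called). The lowest adjusted p was that of Pbx3 (log2 fold change 0.83, adjusted p = 0.057). At an unadjusted p under 0.05 there were 3 of the 8, Pbx3, Pbxip1 and Pknox1, against 10079 of all 24756 features.

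Of 26 Polycomb genes, 3 fell and 0 rose, a smaller share than over all features (15.6% called lower, 10.3% higher), with a median of -0.22. Cbx7, a chromodomain subunit that reads the repressive histone mark, read -5.77, -7.91 and -5.92 in tumors, where it was not well above background on any array, and -3.39, -2.97 and -2.65 in healthy skin. It was at least 4.29-fold lower in tumors (adjusted p = 0.00606). Its relative Cbx2 was 3.65-fold lower (adjusted p = 0.0179), and Phc3, a subunit of the same complex, 1.98-fold lower (adjusted p = 0.0295). Of 16 enzymes and cofactors of histone H3 methylation that act on Hox genes, 1 rose and 1 fell, also smaller shares than over all features. Ash2l, a core subunit of MLL complexes, rose 2.21-fold (adjusted p = 0.0361). Kmt2c, a methyltransferase, fell 2.33-fold (adjusted p = 0.0159), and the other 14 did not pass.

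Among retinoid enzymes, retinoic acid receptors and other regulators upstream of Hox genes, 3 of 9 rose and 2 fell, where 10.3% of all features were called higher and 15.6% lower. Aldh1a3, which makes retinoic acid, read 5.57, 5.36 and 5.73 in tumors and -0.61, -0.21 and -1.89 in healthy skin (87.6-fold higher). Hmga2, a chromatin protein of embryonic and tumor cells, read 1.65, 3.18 and -0.12 in tumors and -4.14, -3.44 and -2.20 in healthy skin (28.4-fold higher, adjusted p = 0.00765). Aldh1a1, also a retinoic acid enzyme, was 17.2-fold lower. The remaining calls, named after their values were seen, were Gmnn, a replication inhibitor that also binds Hox proteins (4.14-fold higher), and Cyp26b1, which breaks down retinoic acid (3.62-fold lower). The receptors Rara, Rarb and Rarg did not pass (adjusted p = 0.12 to 0.606). The Cdx genes, Cyp26a1 and Gdf11 did not pass the detection filter.

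Of 10 tested genes next to the clusters 3 were called, a share near the 25.9% of all features called. Skap2 beside cluster A and Mtx2 beside cluster D were higher in tumors (2.24-fold and 2.10-fold, adjusted p = 0.0256 and 0.0385), and Calcoco1 beside cluster C was lower (2.96-fold, adjusted p = 0.00993). The other 7 did not pass. Of 5 probes for Hotair, the noncoding RNA of cluster C, 1 was detected, on all 6 arrays, with a log2 fold change of -0.28. Hoxa11os, antisense to Hoxa11, read -4.71, -5.03 and -4.87 in tumors and -3.65, -4.49 and -4.07 in healthy skin, without overlap and without passing the test (adjusted p = 0.0962). It was detected on 2 of 3 tumor and 3 of 3 healthy skin arrays, while the Hoxa11 probe was detected on none.

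The tumors and the healthy skin also differed in markers of several cell types, to be read beside the 15.6% of all features called lower and the 10.3% called higher. Of 9 fibroblast markers Col1a1, a collagen chain, was higher (3.32-fold), Dcn and Dpt, matrix proteins, were lower (5.78-fold and 7.64-fold), and the summed signal overlapped between the groups (269 to 565 in tumors, 233 to 422 in healthy skin, in units of the 75th percentile). Skeletal muscle markers fell in 6 of 6 (summed 17.6 to 44.4 in tumors and 576 to 1104 in healthy skin), and Schwann cell markers in 4 of 4 (summed 0.367 to 0.672 in tumors and 4.93 to 12.3 in healthy skin). Of 4 adipocyte markers 3 fell. Each muscle and Schwann marker was well above background on at least 2 arrays of each group. Of 5 keratinocyte markers the differentiation keratins Krt1 and Krt10 fell, of 4 dermal papilla markers 2 fell, and of 5 leukocyte markers 1 rose and 2 fell. No endothelial (4) or melanocyte (3) marker passed. The basal keratin Krt14 read 7.62, 8.42 and 8.34 in tumors and 6.92, 7.14 and 7.42 in healthy skin, far above the 75th percentile on all 6 arrays. The part of these cells in the Hox results was not tested.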

How the data were processed

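RNA of 6 samples was hybridised to 1-colour Agilent arrays. The deposited intensity files hold spot signals from Agilent Feature Extraction 10.7.3.1 with mm9 positions, per the file headers. The authors' deposited table holds log2 values of the same arrays, on a scale close to quantile normalized (column medians 6.33 to 6.35). On each of the 6 arrays its values ranked the spots as the median spot signal did (Spearman correlation 1). Centring each gene or subtracting a background per spot would have changed that order, and other steps are not known here. The submitters' processing notes name limma.

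The processed signal was taken as log2 minus each array's 75th percentile over 59305 spots that were not controls, outlier spots were left out (180 of 55681 probes lost), and spots of a probe were averaged. Probes detected (well above background) on 3 or more of 6 arrays were kept, with the probe of highest mean per gene, which gave 24756 features. Groups were compared with limma 3.58.1 (R 4.3.3), Benjamini-Hochberg adjusted over all features, after a test on simulated data. Names came through RefSeq GRCm38.p6.

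Named in full were the Hox genes past the test whose groups did not overlap, then the largest changes until each cluster had 2, with up to 3 called genes per other list. Counts and medians cover all tested Hox genes, while some single items are not reported here. Other genes were added after their values were seen. The members, lists and rules were chosen with earlier results of these data known, and the division at paralog groups 4 and 5 after seeing values. Alternatives were other scalings, background correction, filters, probe rules, blocks and leaving out each array; leaving out tumor 1 and healthy skin 3 together was chosen after seeing the data. The number of arrays limits the precision.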

Additional observations from a re-analysis of the deposited data

How the results depend on the processing

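The count of 5 called Hox genes became 3 with quantile normalization, 2 with spike-in scaling, 2 without a detection filter, 3 with detection on all 6 arrays and 2 to 5 when 1 array was left out. Of the 5 named calls, 3, 2, 2 and 3 held under the first 4 of these settings, 2 with the slide row as a block, 3 without tumor 1 and healthy skin 3 together, and 2 to 4 when 1 array was left out. Over all features 6420 calls became 2686 with spike-in scaling, 3920 without a filter and 3840 to 5458 when 1 array was left out. Of all calls, 39.8% were higher in tumors, 62.9% with median scaling, 70.9% with spike-in scaling and 48.4% with detection on all 6 arrays; median and spike-in scaling put the median of all features at 0.21 and 0.73. The 13 calls in the lists of partners and regulators became 21 with median scaling, 5 with spike-in scaling, 20 in the authors' table, 24 with the slide row and 7 to 14 when 1 array was left out. Slide row 1 held healthy skin 1 and 2 alone, so that block sets healthy skin 3 against the 3 tumors. Group medians moved as follows. Median scaling gave -0.66 for central genes. Spike-in scaling gave -0.55, 0.11, 0.0357 and -0.15 for clusters A, B, C and D, and -0.37, -0.14 and 0.65 for anterior, central and posterior genes. The authors' table gave -0.89 for cluster A and -0.68 for central genes, no filter -0.21 and the slide row -0.32 for cluster D, detection on all 6 arrays -2.10 for posterior genes, and the 2 arrays left out together 0.0718 for cluster B, with -1.38 to 0.10 when 1 array was left out. None of the genes past the test changed direction. Of the others named, quantile normalization turned Hoxa9 (0.0753) and Hoxd9 (0.0552), median scaling Hoxa9 (0.0715), Hoxb4 (0.25) and Hoxd9 (0.17), and the authors' table Hoxa9 (0.11) and Hoxd9 (0.0506). Spike-in scaling turned Hoxa9 (0.59), Hoxb2 (0.14), Hoxb4 (0.77), Hoxb6 (0.51), Hoxb9 (0.0723), Hoxc6 (0.0747), Hoxc8 (0.29) and Hoxd9 (0.70), and normexp Hoxd10 (-0.39). The slide row turned Hoxa5 (0.0555), Hoxa9 (0.0568), Hoxb6 (0.42), Hoxc8 (0.74) and Hoxd9 (0.62), and the 2 arrays left out together Hoxb2 (0.16), Hoxb4 (0.61) and Hoxb9 (0.31). With 1 array left out, the ranges crossed 0 for Hoxa9 (-0.55 to 0.14), Hoxb2 (-1.33 to 0.0400), Hoxb4 (-0.66 to 0.40), Hoxb6 (-0.97 to 0.15), Hoxb9 (-1.87 to 0.60), Hoxc9 (-0.59 to 1.72) and Hoxd9 (-0.60 to 0.15). The causes were not tested. Deviations of same-numbered samples from their group means correlated weakly (r = 0.10, 0.13 and -0.08, against -0.27 to 0.17 for other pairs). This cannot show whether the numbers pair the samples, since the deviations within a group are not independent. With the replicate number as a block, 5470 features were called, Hoxa5 and Hoxa7 were gained and Hoxb3 was lost. The tumor 1 background limits what can be read of dim genes there.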
